A study of Mus musculus with 235 samples.

Results

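The 4 Phactr genes of the mouse, Phactr1, Phactr2, Phactr3 and Phactr4, were followed through 8 brain regions with and without dexamethasone. They are 4 of the 27998 genes in the count table, and they belong together by name and gene family. Phactr3 was chosen by its region-dependent rise after dexamethasone, seen in an earlier look at these data. Its response and its regional levels are therefore given here as a description with no test, and those of Phactr1, Phactr2 and Phactr4 were tested. For Phactr3 the test was limited to its relation to marker levels among the libraries of a single group, which the choice had not used.

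The libraries came from 30 male C57Bl/6 mice aged 3 month, 15 injected intraperitoneally with dexamethasone, a synthetic glucocorticoid, at 10 mg/kg, and 15 with saline as vehicle. Brains were collected 4 h later, and 8 regions were punched from frozen sections of every animal, labelled PFC, PVN, AMY and CER, dCA1 and vCA1 for dorsal and ventral CA1, and dDG and vDG for dorsal and ventral dentate gyrus. The 16 groups held 13 to 15 libraries each, and 117 libraries in all came from dexamethasone animals. The labels name no transgene, and only males were used.

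PHACTR proteins are phosphatase and actin regulators. Each carries RPEL motifs, which hold monomeric actin, and a C-terminal stretch that binds the catalytic subunit of protein phosphatase 1 (PP1). Actin and PP1 compete for the protein, so the pool of free actin monomers sets how much PP1 a PHACTR protein can direct to its substrates. PHACTR1 is abundant in forebrain neurons, where it shapes dendrites and binds Slack potassium channels. PHACTR3, also called scapinin, was found on the nuclear scaffold. PHACTR4 directs PP1 to the actin-severing protein cofilin and is needed for neural tube and neural crest development.

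The libraries held 268538 to 1451422 counts (median 742957), and counts are of 3' ends tagged with unique molecular identifiers. Levels are given as CPM, which are counts per 1000000 after scaling library totals by trimmed mean of M values (TMM). The treatment was visible in the glucocorticoid-induced genes Fkbp5 and Tsc22d3, which rose in 8 of 8 regions by log2 fold changes of 1.65 to 2.79 and 0.85 to 1.39. In vehicle libraries the dentate granule cell gene Prox1 averaged 455 CPM (SD 253, n = 15) in dDG, 264 CPM (SD 143, n = 15) in vDG and 514 CPM (SD 145, n = 15) in dCA1, so a dentate marker was as high in dCA1 as in dDG. Oxt, an oxytocin neuron gene, was highest in PVN, at 272 ± 399.9 CPM (SD, n = 14). Gabra6, which defines cerebellar granule cells, gave 0 counts in the 15 CER vehicle libraries and 11 counts in both arms together. That cell type's defining marker was thus nearly absent from the CER punches. Some libraries of other regions held it, up to 242 CPM in vDG vehicle and 254 CPM in vCA1 vehicle. It was at 0 in 9 of 15 vDG and 11 of 14 vCA1 vehicle libraries. In bulk tissue, fewer cells of a type and less RNA per cell cannot be told apart.

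All 4 genes had counts in every library. Phactr1 (ENSMUSG00000054728) spans chr13:42680623-43138526 on the plus strand and had a median of 371 counts per library, with a range of 81 to 1196. Phactr3 (ENSMUSG00000027525) spans chr2:178118975-178338492 on the plus strand and had a median of 137 counts, from 29 to 391. Phactr2 (ENSMUSG00000062866) spans chr10:13207717-13474396 on the minus strand and had a median of 34 counts, from 6 to 120. Phactr4 (ENSMUSG00000066043) spans chr4:132355923-132422489 on the minus strand and had a median of 17 counts, from 3 to 109. Coordinates are those of the count table on mm10, the counts fall in exons, and the exons of the 4 genes shared 0 bases with exons of other genes. The low counts of Phactr4 and Phactr2 limit what a single library shows for them.

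Because Phactr4 carried the tested response described next, its upstream sequence is shown. It is the RefSeq promoter window on GRCm38.p6, minus strand, from chr4:132422490-132422696, which ends where the gene begins, with CG dinucleotides in capitals.

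Phactr4: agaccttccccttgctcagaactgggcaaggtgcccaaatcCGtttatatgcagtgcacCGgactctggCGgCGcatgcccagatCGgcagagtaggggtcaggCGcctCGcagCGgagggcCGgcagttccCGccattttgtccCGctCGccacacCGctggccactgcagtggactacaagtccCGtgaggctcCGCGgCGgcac

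The full window of 250 bases before the start site held 20 CG dinucleotides. Of 32851 RefSeq promoter windows of that length 17.9% held as many, and the median window held 6. The motifs were searched on either strand in the 5 windows found for Phactr1, Phactr2 and Phactr4. The Phactr2 window, before a start site at chr10:13324289, lies well inside its gene, as do the Phactr1 windows other than the 5′-most. Phactr3 had no window, so the sequence upstream of the 5′ ends of Phactr2 and Phactr3 was not searched. The glucocorticoid receptor palindrome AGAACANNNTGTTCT was in none of the 5, and in 0.00913% of all windows. Its 6-letter arm AGAACA was in 1 window, upstream of the 5′-most Phactr1 start, and in 16.1% of all windows. The CArG box, bound by serum response factor (SRF), was in none of the 5 and in 1.47% of all windows. These matches describe letters in a short window and say nothing of binding elsewhere.

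Dexamethasone was followed by a higher Phactr4 level in all 8 regions, and the rise passed the test in 7 of them. The size ran from 1.48-fold in dCA1 to 3.56-fold in CER. Phactr3 was higher in the dexamethasone group of all 8 regions too, by 1.32-fold in PFC to 3.33-fold in CER. Phactr1 and Phactr2 passed the test in 0 of 8 regions. As background, the share of all tested genes that passed was 6.18% in CER, 6.14% in PFC, 5.63% in PVN and 5.62% in AMY. In the hippocampal regions it was 5.45% in vCA1, 4.68% in dCA1, 3.93% in vDG and 3.7% in dDG. The test throughout was edgeR's quasi-likelihood test with Benjamini-Hochberg adjustment over the genes of that fit, at an adjusted p of 0.05. On the authors' variance-stabilised log2 values, limma gave Phactr4 differences of 0.26 in dCA1 to 1.16 in CER, which are 1.57 to 2.49 times smaller, and 7 of 8 passed there too. In 6 of 8 regions too few vehicle libraries reached the cutoff of the filter on low counts for Phactr4 to pass it on them alone, 7 of 15 in dDG being the fewest, so the libraries of the dexamethasone arm helped it into the test. Without a filter it also passed in 7 of 8.

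In CER the level of Phactr3 had a lowest, median and highest value of 93.6, 125 and 137 CPM in vehicle and 315, 391 and 485 CPM after dexamethasone, a log2 fold change of 1.73 (SE 0.08). In PVN the values were 85.6, 116 and 142 CPM against 199.8, 262 and 315 CPM, a log2 fold change of 1.28 (SE 0.08). AMY gave 109, 151 and 182 CPM against 262, 361 and 440.2 CPM, with 1.25 (SE 0.09). In these 3 regions the lowest dexamethasone library lay well above the highest vehicle library.

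The regions labelled dDG and vDG held an intermediate place for Phactr3. This grouping is by label, since the dentate granule cell list did not separate these regions from dCA1. Its median summed level in vehicle was 1184 CPM in dCA1, 928 CPM in dDG and 357 CPM in vDG. In dDG the lowest, median and highest values were 84.9, 119 and 194 CPM in vehicle and 125, 224 and 331 CPM after dexamethasone, with a log2 fold change of 0.80 (SE 0.13). In vDG they were 92.5, 136 and 167 CPM and then 177, 224 and 295 CPM, with 0.75 (SE 0.10). The arms overlapped in dDG and did not overlap in vDG.

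Phactr3 moved least in PFC, vCA1 and dCA1. PFC had 177, 199 and 228 CPM in vehicle and 232, 251 and 318 CPM after dexamethasone, with a log2 fold change of 0.40 (SE 0.07). In vCA1 the values were 146, 182 and 270.1 CPM and then 177, 270.3 and 349.8 CPM, with 0.46 (SE 0.10). In dCA1 they were 81.4, 157 and 306 CPM and then 155, 202 and 325 CPM, with 0.45 (SE 0.15). PFC had the highest vehicle median of the 8 regions and a narrow spread, so its small difference still separated the arms, whereas the arms overlapped in both CA1 regions.

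Counted over regions, the Phactr3 arms did not overlap in 5 of 8, AMY, CER, PFC, PVN and vDG, and 93 of 117 dexamethasone libraries lay above the highest vehicle library of their region. The share of all tested genes whose dexamethasone libraries all lay above all vehicle libraries was 0.564% in CER, 0.367% in PVN, 0.348% in AMY and 0.326% in PFC. In hippocampus it was 0.285% in vCA1, 0.195% in dCA1, 0.193% in vDG and 0.0936% in dDG. Nothing is read from these shares for Phactr3, which was selected on this contrast.

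**Figure D1:**
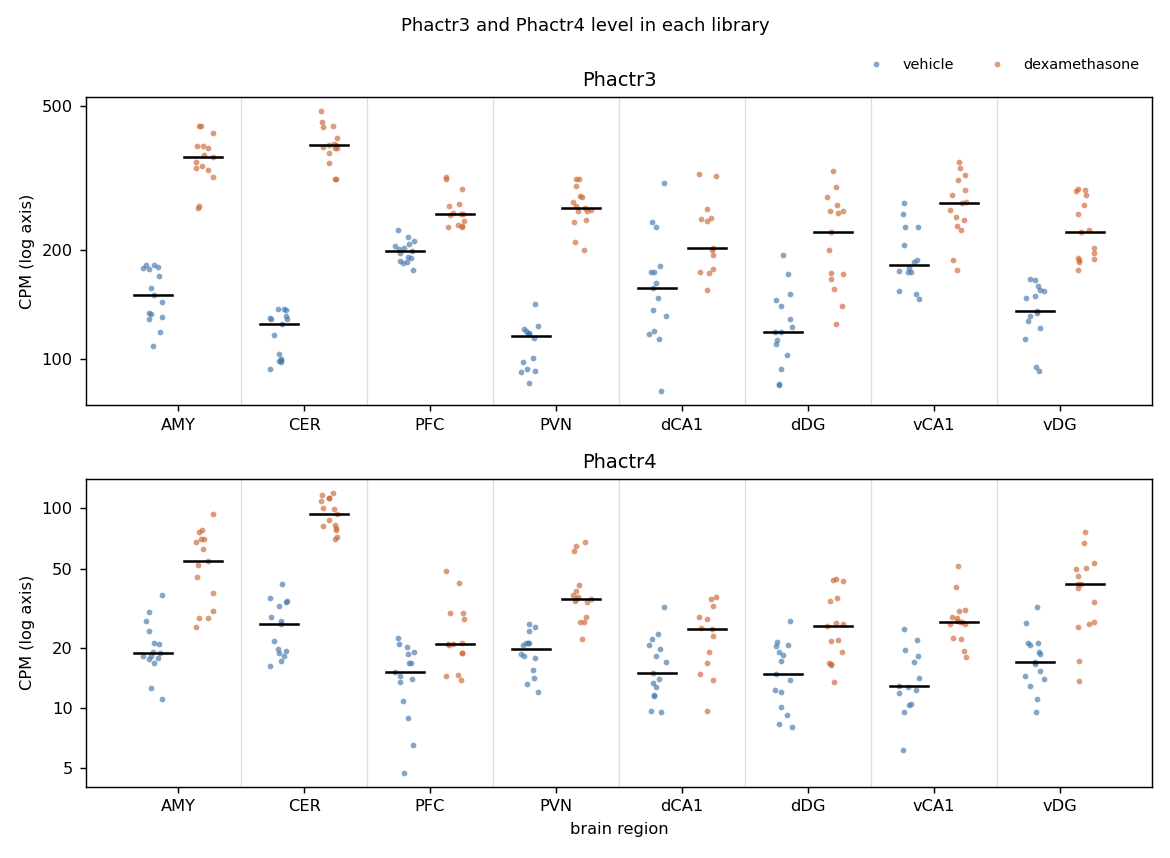
Level of Phactr3 (top) and Phactr4 (bottom) in each library, in CPM on a log axis, by brain region, with vehicle in blue, dexamethasone in orange and a black line at each group's median. The 2 arms of Phactr3 are apart in AMY, CER, PFC, PVN and vDG, and those of Phactr4 are apart in CER, where dexamethasone libraries begin at 70.6 CPM and vehicle libraries end at 41.6 CPM.

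Phactr4, the cofilin-directed member, showed its highest response in CER. The lowest, median and highest values there were 16.2, 26.3 and 41.6 CPM in vehicle and 70.6, 93.9 and 119.9 CPM after dexamethasone. The log2 fold change was 1.83 (SE 0.12, adjusted p = 4.01e-15, edgeR), and CER was the 1 region of 8 in which its arms did not overlap. AMY gave 11.1, 18.8 and 36.9 CPM against 25.6, 54.2 and 93.4 CPM, or 1.39 on the log2 scale (SE 0.18, adjusted p = 3.98e-07, edgeR). In AMY 11 of 15 dexamethasone libraries lay above every vehicle library.

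Rises near 2-fold were found for Phactr4 in vDG, PVN and vCA1. The vDG values were 9.50, 16.9 and 32.2 CPM in vehicle and 13.7, 41.8 and 76.0 CPM after dexamethasone, or 1.20 on the log2 scale (SE 0.20, adjusted p = 9.06e-05, edgeR). PVN gave 12.0, 19.7 and 26.3 CPM against 22.3, 35.1 and 68.1 CPM, with 1.03 (SE 0.15, adjusted p = 3.19e-06, edgeR). In PVN 14 of 15 dexamethasone libraries were above the highest vehicle library, the clearest separation after CER. The vCA1 values were 6.18, 12.9 and 24.9 CPM against 18.1, 27.1 and 51.7 CPM, with 0.98 (SE 0.17, adjusted p = 6.20e-05, edgeR).

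In dDG, PFC and dCA1 the arms of Phactr4 overlapped for most libraries. The dDG values were 8.05, 14.8 and 27.3 CPM in vehicle and 13.5, 25.7 and 44.3 CPM after dexamethasone, with 0.79 (SE 0.19, adjusted p = 0.00928, edgeR). PFC gave 4.73, 15.1 and 22.5 CPM against 13.9, 20.9 and 48.5 CPM, with 0.70 (SE 0.19, adjusted p = 0.0154, edgeR). In dCA1 the values were 9.58, 15.0 and 32.2 CPM against 9.71, 24.8 and 36.0 CPM, and their log2 difference of 0.56 (SE 0.19, adjusted p = 0.0912, edgeR) did not pass. That call rested on 1 library. Without vehicle replicate 4 of dCA1, which had 297943 counts and is not listed in the authors' variance-stabilised tables, the dCA1 log2 fold change was 0.62 (adjusted p = 0.0394, edgeR). Over the alternative settings its adjusted p ran from 0.0394 to 0.248. Over the 8 regions, 74 of 117 dexamethasone libraries exceeded the highest Phactr4 value among the vehicle libraries of their region.

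The response of Phactr4 differed among the regions when the difference itself was tested. The F statistic for the 7 region-by-treatment terms, with the animal as a block, was 5.39 (adjusted p = 0.00209, edgeR), and 1.27% of all tested genes passed that test. The same test gave an F of 0.77 for Phactr1 and 1.3 for Phactr2, with an adjusted p of 1.00 for each. CER, AMY and PVN held the 3 highest Phactr3 log2 fold changes, and CER, AMY and vDG the 3 highest of Phactr4, while PFC, dCA1 and vCA1 were the 3 lowest for Phactr3 and dCA1, PFC and dDG for Phactr4. The orders shared CER and AMY at the top and PFC and dCA1 at the bottom. Among the other regions, PVN and dDG stood higher in the order of Phactr3, and vDG and vCA1 in that of Phactr4.

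**Figure D2:**
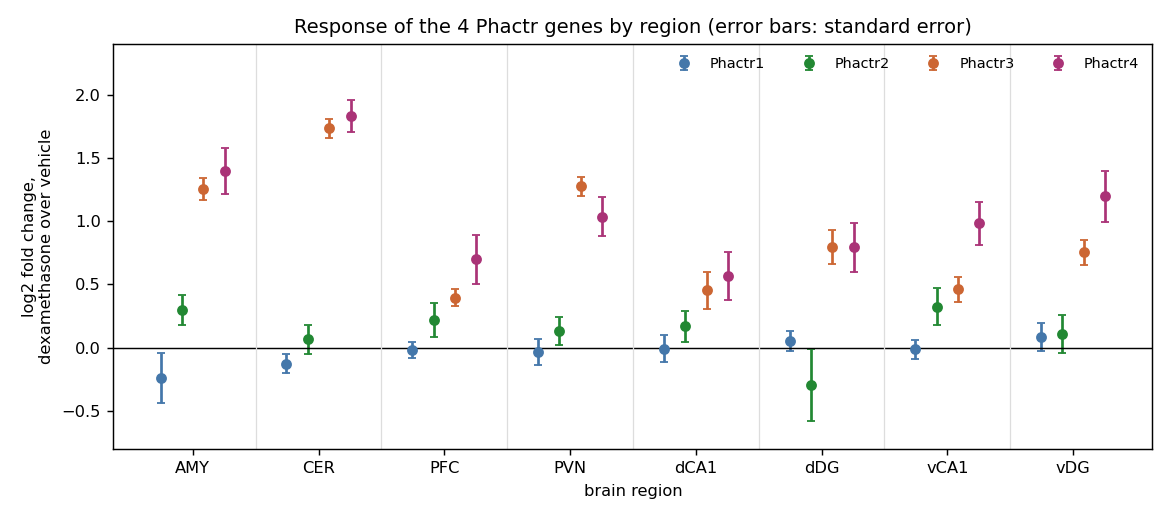
Log2 fold change of dexamethasone over vehicle for the 4 Phactr genes in 8 brain regions, with standard errors as bars. Phactr3 and Phactr4 lie between 0.40 and 1.83 in every region, while Phactr1 and Phactr2 lie between -0.30 and 0.32.

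Phactr1, the forebrain neuron member, gave no call. Its log2 fold changes ran from -0.24 in AMY to 0.08 in vDG, they were below 0 in 6 regions and above 0 in 2, and the lowest adjusted p was 0.492 (edgeR), with 0 of 8 regions under an unadjusted p of 0.05. In dCA1 the fitted value was below 0 while the group mean was 583 CPM in vehicle and 585 CPM after dexamethasone. In PFC, where its vehicle libraries had the smallest relative spread of the 8 regions, the lowest, median and highest values were 660.1 CPM, 781 CPM and 849 CPM in vehicle and 582 CPM, 787 CPM and 891 CPM after dexamethasone, a log2 fold change of -0.02 (SE 0.06). The groups overlapped there. In AMY it was spread widely in both arms, from 374 through 875 to 1378 CPM in vehicle and from 327 through 625 to 1179.6 CPM after dexamethasone. The standard error in AMY was 0.20, the largest of its 8 regions.

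Phactr2 also gave no call. Its log2 fold changes ran from -0.30 in dDG to 0.32 in vCA1, it was higher after dexamethasone in 7 regions and lower in 1, and the lowest adjusted p was 0.192 (edgeR). AMY and vCA1 were the 2 regions under an unadjusted p of 0.05. In AMY the values were 33.4, 47.6 and 75.3 CPM in vehicle and 43.3, 59.7 and 100.2 CPM after dexamethasone, with 0.30 (SE 0.12). In vCA1 they were 20.1, 38.5 and 60.4 CPM and then 29.9, 48.7 and 88.8 CPM, with 0.32 (SE 0.15). Across all 8 regions 9 of 117 dexamethasone libraries exceeded the vehicle maximum for Phactr2 and 3 of 117 for Phactr1. At the low end of Phactr2, 5 of 15 vehicle libraries in dCA1 and 4 of 15 in AMY lay below every dexamethasone library, and the arms overlapped in all 8 regions for both genes.

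**Figure D3:**
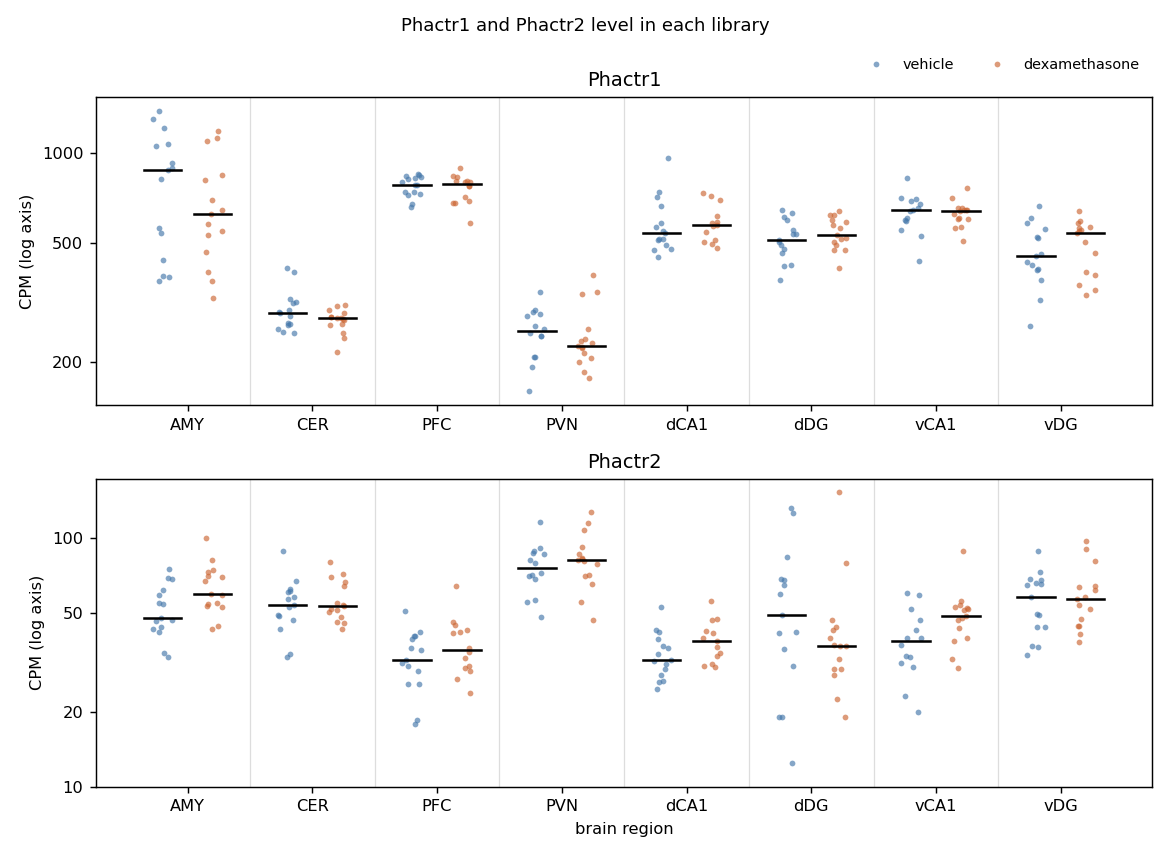
Level of Phactr1 (top) and Phactr2 (bottom) in each library, in CPM on a log axis, by brain region, with vehicle in blue, dexamethasone in orange and a black line at each group's median. The arms overlap in every region, Phactr1 spreads from 327 to 1378 CPM in AMY, and Phactr2 spreads from 12.4 to 153 CPM in dDG.

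Animals were processed on 5 punching dates and several library plates, which the labels record. Date 2 held 1 vehicle library per region and was left out, so 4 of 5 dates were used. Within date and region, the mean log2 level of Phactr3 was higher after dexamethasone in 32 of 32 combinations, and within plate and region in 32 of 32. For Phactr4 the counts were 31 of 32 for each, the exceptions being PFC on date 3 (-0.02) and dCA1 on plate 4 (-0.27). Phactr1 was higher in 19 of 32 by date and 16 of 32 by plate, and Phactr2 in 24 and 21. Nothing is read from the counts of Phactr3, which was chosen by its rise in these libraries. The combinations reuse the same animals across regions, and dates and plates divide the same libraries.

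Levels among the regions were compared in the vehicle libraries, where all 8 regions came from the same 15 animals. Phactr1 differed among regions (F = 43.9, adjusted p = 1.09e-27, edgeR), as did Phactr2 (F = 12.3, adjusted p = 6.48e-11, edgeR) and Phactr4 (F = 6.38, adjusted p = 6.52e-06, edgeR). Of all tested genes 73.3% differed among regions by this test, so a regional difference was the common case.

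The AMY and PFC means of Phactr1 were the highest, at 813 ± 347 CPM (SD, n = 15) and 775 ± 61.1 CPM (SD, n = 15), followed by vCA1 at 632, dCA1 at 583, dDG at 518 and vDG at 466 CPM. It was lowest in CER at 300.3 and PVN at 253 CPM, a 3.21-fold range between region means. Of the 7 gaps between neighbours in this order, 2 exceeded the larger SD, those between PFC and vCA1 and between vDG and CER.

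Phactr2 had nearly the opposite order at its ends. It was highest in PVN at 76.6 ± 17.5 CPM (SD, n = 14) and lowest in PFC at 33.1 ± 8.98 CPM (SD, n = 15), a 2.32-fold range, with dDG, vDG, CER and AMY between 52.1 and 56.9 CPM and vCA1 and dCA1 at 39.3 and 34.4 CPM. Only the gap between AMY and vCA1 exceeded the larger SD of its neighbours.

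Phactr3 had a flatter profile in vehicle, from 199 ± 13.8 CPM (SD, n = 15) in PFC and 194 ± 38.5 CPM (SD, n = 14) in vCA1 down to 117.6 ± 16.8 CPM (SD, n = 15) in CER and 109.7 ± 16.0 CPM (SD, n = 14) in PVN, a 1.81-fold range. Phactr4 also spanned 1.81-fold, from 26.1 ± 8.03 CPM (SD, n = 15) in CER to 14.4 ± 5.21 CPM (SD, n = 14) in vCA1. For Phactr3 and Phactr4, 0 of 7 gaps between neighbours exceeded the larger SD. After dexamethasone CER, next to last for Phactr3 in vehicle, held the highest Phactr3 mean, 394 ± 47.3 CPM (SD, n = 15), and Phactr4 kept its highest mean in CER at 94.5 ± 16.9 CPM (SD, n = 15).

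Dorsal and ventral parts of the hippocampus were compared for the tested members. Between dCA1 and vCA1 the dorsal minus ventral log2 differences were -0.10 for Phactr1, -0.17 for Phactr2 and 0.14 for Phactr4, and 0 of 3 passed, where 22.1% of all tested genes did. Between dDG and vDG they were 0.17, 0.01 and -0.20, and again 0 of 3 passed, where 15.3% of all tested genes did. The standard errors were 0.12 to 0.18, so differences of this size were not detectable here.

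By the highest Pearson r with the vehicle region means, over 8 regions and 11511 genes, the nearest profiles were Smarcd1, Gm45837 and Gm26881 for Phactr1 and Tet1, Chd2 and Ebna1bp2 for Phactr2. They were Txn2, Rab15 and Plpp7 for Phactr3 and G6pdx, Mdk and Slc25a25 for Phactr4, and r lay between 0.967 and 0.984. For the response, the genes whose log2 fold changes over 8 regions were nearest to those of Phactr3 among 7923 genes were Actn4, which encodes an actin crosslinker (r = 0.97), Ccng1, which encodes cyclin G1 (0.96), and Sugp1 (0.96). Ccng1 rose in 8 of 8 regions by 0.55 to 2.15, Actn4 passed in 3 of 8 with 0.04 to 0.45, and Sugp1 passed in 0 of 8. Phactr4 stood 62nd in that ordering, with an r of 0.86. The nearest genes named here hold the highest r of 11511 or 7923 correlations over 8 points, and no background is given for them. Phactr3 was also chosen by its region-dependent rise, so nothing is read from these orderings.

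The partners of the family were taken from lists written with earlier results of these data known. Over all genes, 5.17% of gene and region tests passed and the median log2 fold change was -0.01. The catalytic subunits of PP1, which PHACTR proteins bind, gave 0 calls among 16 tests of 2 genes, with a median of -0.08. Of 173 tests of 23 other PP1 regulatory subunits, 7 rose and 2 fell, a share of 5.20% beside 5.17% of all genes, with a median of 0.03. Ppp1r3c, which targets PP1 to glycogen, rose in AMY (0.47), CER (1.00), PVN (0.71) and vDG (0.50). Ppp1r1b, the PP1 inhibitor DARPP-32, rose in CER (0.45), PVN (0.71) and vDG (0.49). Ppp1r16b fell by 0.36 in CER and by 0.34 in PVN. With the replicate number as a block, 12 tests of this list rose and 4 fell, 9.25% beside 6.41% of all gene and region tests in that fit. The vDG call of Ppp1r1b ended in limma on the deposited log2 values (0.35, adjusted p = 0.0771) and without the libraries that the authors' variance-stabilised tables do not list (0.44, adjusted p = 0.0608, edgeR), and the PVN call of Ppp1r16b ended with the oligodendrocyte covariate (-0.25, adjusted p = 0.136, edgeR). With the replicate block Ppp1r16b was higher in dCA1 by 0.33 (adjusted p = 0.00376, edgeR), Ppp1r1b higher there by 0.41 (adjusted p = 0.0113, edgeR), and Ppp1r3c higher in dCA1 by 0.34 (adjusted p = 0.0269, edgeR) and in dDG by 0.32 (adjusted p = 0.0282, edgeR).

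Actin genes, other RPEL proteins and SRF gave 8 rises and 0 falls in 53 tests of 7 genes, 15.1% against the 5.17% of all genes, with a median of 0.02. All 8 came from the myocardin-related transcription factors, which bind actin monomers through RPEL motifs as PHACTR proteins do and activate SRF when released. Mrtfa passed the filter on low counts in 5 regions and rose in each of these, by 0.64 in dCA1, 0.71 in PFC, 0.73 in dDG, 0.74 in vDG and 0.96 in vCA1, while Mrtfb rose in CER (0.49), PVN (0.56) and vCA1 (0.39). In dCA1, dDG, vCA1 and vDG too few vehicle libraries reached the filter's cutoff for Mrtfa to pass on them alone, and without a filter these rises passed too. The other 5 genes of the list gave 0 calls, but with the replicate block Srf was lower in AMY by a log2 fold change of -0.36 (adjusted p = 0.0141, edgeR) and Mrtfb higher in vDG by 0.35 (adjusted p = 0.0439, edgeR). The vCA1 call of Mrtfb ended with the dentate covariate (0.25, adjusted p = 0.207, edgeR).

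Cytoskeletal targets of SRF and these factors gave 6 rises and 3 falls in 84 tests of 13 genes, 10.7%, with a median of -0.04, so they did not move one way. Ccn2, a secreted matrix protein, rose in PFC (0.71), dCA1 (1.31), dDG (1.07) and vDG (1.06), and Fhl2 rose in dCA1 (0.61) and vDG (0.63). In dCA1 3 of 15 vehicle libraries and in dDG 5 of 15 reached the filter's cutoff for Ccn2, and without a filter it gave 1.32 (adjusted p = 0.000148, edgeR) and 1.07 (adjusted p = 0.00689, edgeR). For Fhl2 in dCA1 12 of 15 vehicle libraries reached the cutoff, 12.1 being needed, and without a filter it gave 0.62 (adjusted p = 0.0407, edgeR). With the replicate block Fhl2 did not pass in dCA1 (0.54, adjusted p = 0.0535, edgeR) and passed in PFC (0.33, adjusted p = 0.0219, edgeR). The dCA1 call of Fhl2 also ended with the dentate covariate (0.48, adjusted p = 0.121, edgeR) and in limma (0.30, adjusted p = 0.0905). The vDG call of Ccn2 ended in limma (0.59, adjusted p = 0.163) and without the unlisted libraries (0.99, adjusted p = 0.0573, edgeR). Vcl, which encodes the adhesion protein vinculin, fell by 0.50 in PFC and by 0.42 in PVN, and Lima1 fell by 0.60 in dCA1 and, with the replicate block, by 0.66 in dDG (adjusted p = 0.0234, edgeR). Of 238 tests of 30 actin filament turnover genes, 3 rose and 0 fell, 1.26%, with a median of 0.00. They were the cofilin phosphatase Ssh2 in PFC (0.30), Arpc2 of the branching complex in PFC (0.29) and Baiap2 in PVN (0.51). With the replicate block 6 rose and 0 fell, 2.52% beside 6.41% of all tests, among them Arpc2 in dDG (0.30, adjusted p = 0.0236, edgeR).

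Kcnt1, which encodes the Slack potassium channel bound by PHACTR1, rose in 8 of 8 regions, by 0.39 in AMY to 2.26 in dCA1. Its relative Kcnt2 gave 0 calls. The call of Kcnt1 in AMY ended in limma (0.24, adjusted p = 0.0655), and that in vCA1 with the dentate covariate (0.57, adjusted p = 0.114, edgeR). Without the unlisted libraries it did not pass in vCA1 (0.55, adjusted p = 0.0572, edgeR) or vDG (0.85, adjusted p = 0.0542, edgeR). The dCA1 value rests on few vehicle counts, with a mean level of 7.00 CPM (SD 4.11, n = 15). In dCA1 1 of 15 vehicle libraries and in dDG 4 of 15 reached the filter's cutoff. Without a filter the dCA1 log2 fold change was 2.26 (adjusted p = 4.48e-10, edgeR).

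The marker lists were set beside the members, since the punches held several cell types. The relation to the oligodendrocyte markers Mbp, Mog, Mobp, Cldn11 and Mag, the myelin-forming cells, was examined after these values were seen. The lowest, median and highest summed level of the 5 genes in vehicle was 4555, 8342 and 9770.4 CPM in CER and 3731, 5340.3 and 8336 CPM in AMY, and after dexamethasone 6434, 8126 and 9570.4 CPM and then 2219, 5174 and 8005 CPM. The vehicle medians were 2997 CPM in PVN, 2874 CPM in vDG, 2562 CPM in vCA1, 2280.4 CPM in dDG, 1684 CPM in dCA1 and 1218 CPM in PFC, so CER and AMY held the most of this RNA and PFC the least. None of the 5 genes was at 0 in any group, 0 rose, and 1 fell, in AMY.

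Over the 8 regions, the vehicle oligodendrocyte level correlated with the log2 fold change of Phactr3 with r = 0.91 (rho = 0.90) and of Phactr4 with r = 0.94 (rho = 0.95). Among 13 marker lists this one gave the highest r for each gene. The 8 points share animals, and the list was picked out after the fact, so these are descriptions with no p.

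**Figure D4:**
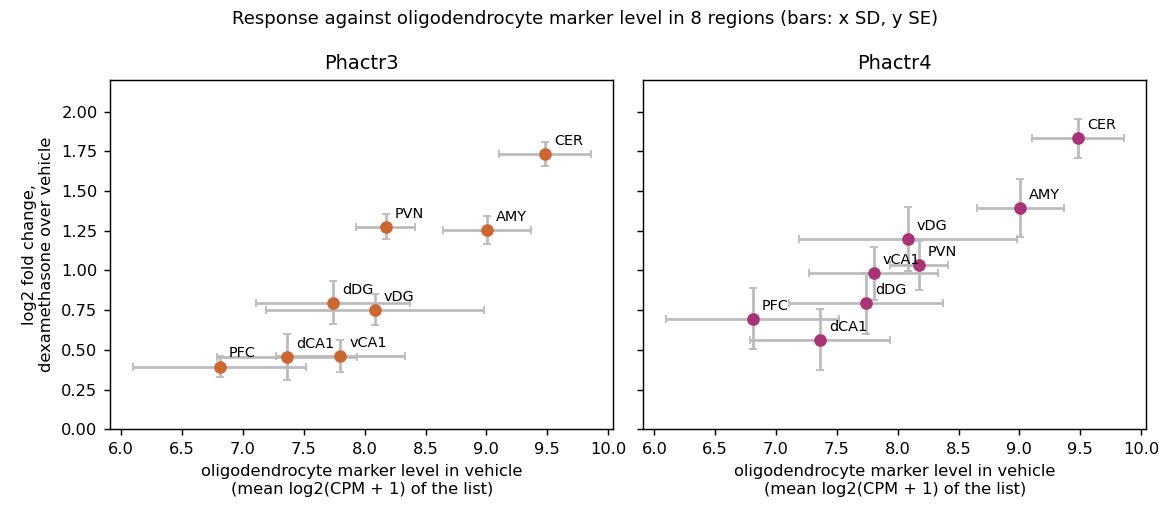
Log2 fold change of Phactr3 (left) and Phactr4 (right) against the mean log2(CPM + 1) of 5 oligodendrocyte markers in vehicle libraries, 1 point per brain region, with the SD of the marker level as horizontal bars and the standard error of the fold change as vertical bars. PFC and dCA1 lie at the lower left and AMY and CER at the upper right of each panel.

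Within the libraries of a single region and arm, the level of each gene was correlated with the oligodendrocyte level. This gave 64 relations, tested by permutation with Benjamini-Hochberg adjustment. Only this list, picked from 13 after the regional pattern was seen, was tested in this way, and the adjustment does not cover that choice. The 8 groups of an arm share animals, so a count of groups is not a count of independent results. For Phactr4 the r was positive in 8 of 8 dexamethasone groups, from 0.62 to 0.88, and 5 passed, those of AMY, CER, PFC, dDG and vDG, with 3 passing by Spearman's rho. In vehicle 5 of 8 were positive, from -0.40 to 0.83, and 2 passed, those of AMY and vDG, of which vDG also passed by rho. In AMY vehicle the adjusted p of rho was 0.118 (permutation), and the r of 0.73 was 0.48 without the 2 libraries farthest from the median marker level. For Phactr3 the dexamethasone groups gave 8 of 8 positive, from 0.35 to 0.79, with 3 passing, those of AMY, dDG and vDG, and 2 passing by rho, while in vehicle 3 of 8 were positive, from -0.53 to 0.58, and 0 passed. Phactr1 and Phactr2 gave 0 passing relations in 32.

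In dDG after dexamethasone the values for Phactr3 were r = 0.79 (adjusted p = 0.00848, permutation) and rho = 0.74 (adjusted p = 0.0283, permutation), and in vDG r = 0.75 (adjusted p = 0.0141, permutation) and rho = 0.78 (adjusted p = 0.0192, permutation). For Phactr4 in vDG after dexamethasone they were r = 0.87 (adjusted p = 0.00256, permutation) and rho = 0.84 (adjusted p = 0.00640, permutation), and in PFC r = 0.88 (adjusted p = 0.00256, permutation) and rho = 0.79 (adjusted p = 0.0219, permutation). Without the 2 libraries farthest from the median marker level, r in the 8 dexamethasone groups ran from 0.06 to 0.71 for Phactr3 and from 0.28 to 0.81 for Phactr4. For Phactr3 the r fell from 0.35 to 0.06 in PFC and from 0.37 to 0.08 in vCA1, so these positive values rest on those libraries. Whether the correlations differed between arms was not tested.

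As a scale for these values, the share of all genes tested in a region whose r with the oligodendrocyte level was as high was 0.0870% to 3.17% for Phactr4 in the 8 dexamethasone groups, with a median of 1.68%. For Phactr3 it was 0.784% to 16.9%, with a median of 4.49%. In vehicle the medians were 13.1% and 54.6%. With the oligodendrocyte level as a covariate, an alternative added after the data were seen, Phactr4 still passed in 7 of 8 regions.

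**Figure D5:**
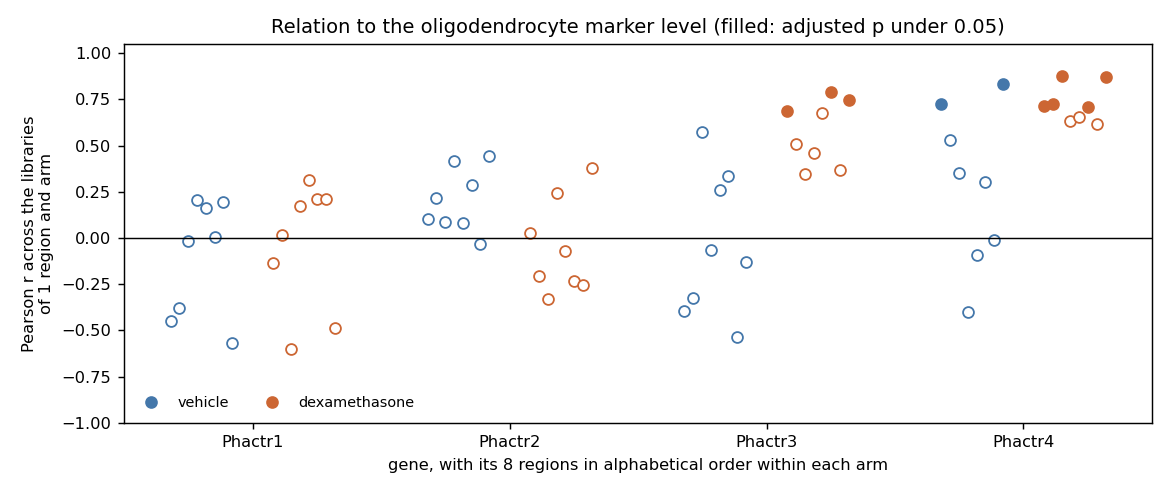
Pearson r between each Phactr gene and the oligodendrocyte marker level across the libraries of 1 region and arm, with the 8 regions of an arm from left to right in alphabetical order, vehicle in blue and dexamethasone in orange, and filled points for an adjusted p under 0.05 by permutation. All 16 dexamethasone values of Phactr3 and Phactr4 are above 0, whereas the values of Phactr1 and Phactr2 scatter on both sides of 0.

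Microglial and endothelial markers moved with treatment in all 8 regions. The median summed level of 6 microglial markers was lower after dexamethasone in each region, for example 299 CPM against 507 CPM in AMY, with 2 genes passing as lower in each region. That of the endothelial markers was lower as well, for example 263 CPM against 375 CPM in AMY, with 2 passing as lower. Of the dentate granule cell list 2 genes rose in vCA1, where its median summed level was 208 CPM in vehicle and 320.5 CPM after dexamethasone, and 1 fell in each of PVN, CER, AMY and dCA1. In dCA1 that level was 1184 CPM in vehicle and 861 CPM after dexamethasone. The dentate covariate was the mean log2 level of the genes of this list other than Prox1. With it the dCA1 log2 fold change of Phactr3 was 0.27 (SE 0.11). In the 4 hippocampal regions, the ones where this covariate was fitted, Phactr4 passed with it in 3, vCA1, dDG and vDG, as it did without it. The part of the microglial and endothelial lists in the Phactr values was not tested.

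Phactr2 varied most in dDG, where the lowest, median and highest values were 12.4, 49.3 and 132 CPM in vehicle and 19.2, 36.9 and 153 CPM after dexamethasone. This region was examined because of that spread. The 5 choroid plexus markers had a median summed level of 1275 CPM in dDG vehicle libraries and 281 CPM after dexamethasone. Across the 30 dDG libraries, permuting within arms, Phactr2 correlated with them with r = 0.77 (p = 1e-05, the smallest the permutations can give, adjusted p = 0.00013) and rho = 0.68 (adjusted p = 0.00143, permutation), and with r = 0.69 without the 2 libraries farthest out. The other 12 marker lists did not pass. The part of choroid plexus RNA in the dDG difference of Phactr2 was not tested.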

How the data were processed

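The 4 genes and the lists were chosen with earlier results of these data known. Counts per gene for 235 libraries were deposited by the authors as whole numbers. Per the submitters' processing notes the tools were FastQC 0.11.4, cutadapt, UMI-tools 0.5.4, STAR 2.6.0a, featureCounts 1.6.4, DESeq2 1.30.1 and R 4.0.5 on mm10. The strand setting is not given in the sources used here. The authors also deposited variance-stabilised values on a log2 scale for 228 libraries, used as an alternative only. Gene symbols came from GENCODE M21, and 99.9% of identifiers in common lay at overlapping GRCm38 coordinates.

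Groups came from the sample titles. Each region was fitted with edgeR 4.0.16 (filterByExpr, TMM, glmQLFit, glmQLFTest), dexamethasone against vehicle, at an adjusted p of 0.05. Fits across regions used the animal as a block. Replicate numbers in the titles pair libraries of the 2 arms: per the labels, same-numbered libraries shared the plate in 115 of 115 pairs and the punching date in 109 of 115. Their deviations from the group means correlated with a median r of 0.05 to 0.21 per region, and in 4 to 12 of 13 to 15 pairs r was over 0.1. A standard error is the size of a log2 fold change over the root of its F. Correlations used log2(CPM + 1) and 100000 permutations. Group means of libraries measure the spread between animals. Named genes were the members, up to 4 genes per list with the largest absolute median change among those that passed anywhere, Fkbp5, Tsc22d3, and the 3 nearest profiles of each member. Genes compared for likeness had at least 5 CPM. A gene of the oligodendrocyte list is not reported here, and the list was used without it. Motif choices and the choroid plexus and oligodendrocyte relations were made after values were seen, as was the naming of the AMY genes in the closing section. The alternatives were DESeq2 1.42.0, other filters and scalings, limma 3.58.1, covariates and blocks. Python 3.11.15, numpy 2.4.6, pandas 2.3.3, scipy 1.17.1 and matplotlib 3.10.9 were used with R 4.3.3.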

Additional observations from a re-analysis of the deposited data

Results flagged for a closer look

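The dexamethasone response of Phactr4 differed among the 8 regions by a direct test of the difference, with F = 5.39 (adjusted p = 0.00209, edgeR). The log2 fold change ran from 0.56 in dCA1 to 1.83 in CER, and all 8 were above 0.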

How the results depend on the processing

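The 7 calls of Phactr4 held in number under DESeq2, no filter, upper-quartile scaling, date and plate, RIN, the dentate covariate (hippocampal regions only), the oligodendrocyte covariate and limma, and there were 8 without the 7 libraries that the variance-stabilised tables do not list. With at least 10 counts in every library 14 of 24 member tests remained and 0 passed, because Phactr4 then had too few counts to be tested. The pathway lists gave 37 calls, and 20 under that filter, where the other 17 were no longer tested. With the replicate number as a block, the members still gave 7 calls and the lists 51 (41 rises and 10 falls), while the share of all tests that passed was 6.41% with the block and 5.17% without it. Of the 37 list calls 36 remained with the block, which added 15. Without a filter, under DESeq2, upper-quartile scaling, date and plate, and RIN 37 remained, with the oligodendrocyte covariate 36, with the dentate covariate 34, and 33 each in limma and without the unlisted libraries. The region fits without the animal block changed no call.

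The uncalled log2 fold change of Phactr1 turned sign in dCA1, with 0.0069 without a filter, 0.0099 with 10 counts, 0.062 under the replicate block, 0.033 with punching date and plate as factors, 0.041 with RIN, 0.069 in limma, 0.0028 with the oligodendrocyte covariate and 0.077 without the unlisted libraries. It did so in PFC, with 0.0024 in limma and 0.0049 without those libraries, and in vCA1, with 0.059 under the dentate and 0.0045 under the oligodendrocyte covariate. The uncalled dDG minus vDG difference of Phactr2 became -0.00084 with upper-quartile scaling and -0.17 with limma voom. The cause was not tested. In limma on the deposited log2 values the Phactr3 change was 1.50 in CER and 1.00 in PVN, and that of Phactr4 was 1.16 in CER, 0.73 in AMY, 0.63 in vDG, 0.46 in PVN, 0.43 in vCA1, 0.37 in dDG, 0.28 in PFC and 0.26 in dCA1. Counts of 3 to 109 per library limit Phactr4.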

Other observations

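Phactr1 was spread widely among the AMY libraries in both arms, from 327 to 1378 CPM. Over the 30 AMY libraries, with arm means removed, the genes among 9756 whose levels correlated most with Phactr1 were Gng7 (r = 0.98), Foxp1 (0.97), Ppp1r1b (0.97), Arpp21 (0.97), Arpp19 (0.96) and Drd1 (0.96). Drd1 encodes a dopamine receptor, and Ppp1r1b, Arpp21 and Gng7 are abundant in striatal neurons. Drd1 itself ran from 11.7 CPM to 242 CPM and Ppp1r1b from 74.2 CPM to 1119.7 CPM among these libraries. The genes were picked for their correlation after the spread was seen, so no p is given. None of the 6 passed the dexamethasone test in AMY.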
